A study of Mus musculus with 16 samples.

Results

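The imprinted genes described here are 39 symbols, given as a list and looked up in the rows of a count table of 35976 genes. No cutoff on a measured value picked them, but they were chosen with earlier results of these data known. They lie in 16 domains or single loci of the mouse genome. Of the 39, 33 were abundant enough to be tested and 6 were not, and 13891 genes were tested in all. The RNA came from day 4 neural tube organoids, structures grown from the mouse embryonic stem cell line R1 that carried a FOXA2-Venus reporter and had received retinoic acid (RA) for 18 hours. The cell line, the reporter and the treatment were common to all libraries. Cells were divided into high, medium, low and negative gates, with 4 libraries each, by the level of FOXA2, a forkhead factor of the floor plate at the ventral midline. The method was BRB-seq, which barcodes and pools bulk samples early and reads mostly transcript 3′ ends. All libraries derive from 1 line, and no source used here gives the thresholds of the gates. Nothing in the labels ties the replicate numbers to separate cultures, so a p-value here reflects only how far these libraries spread.

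Imprinted genes are expressed mainly from the allele of 1 parent. DNA methylation laid down in the egg or the sperm marks control regions that are kept through development, and each such region acts on a group of neighbouring genes, in some domains through a long noncoding RNA (Airn, Kcnq1ot1) that silences neighbours on the chromosome it is made from. Many of these genes are known for setting embryonic and placental growth, with paternally expressed genes such as Igf2 often promoting it and maternally expressed genes such as Cdkn1c, Igf2r and Phlda2 restraining it, and several act in the developing nervous system. The counts do not separate the alleles, so the values are total transcript levels and hold nothing on imprinting itself. The strand setting of the counting is not given either, so genes that overlap a partner on the other strand cannot be told apart from it. In bulk libraries, fewer cells of a type and less RNA per cell cannot be told apart.

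The smallest library held 3268948 counts and the largest 9961032, with 5451076 or more in every negative library, 5527287 or more in the low ones and 5155331 or more in the medium ones. Foxa2 itself, whose product defined the gates, averaged 2.91 ± 1.68, 11.9 ± 3.02, 52.0 ± 9.36 and 113 ± 18.2 CPM in the negative, low, medium and high gates, CPM being counts scaled to a common library size. Levels throughout are CPM of libraries 1 to 4 of a gate, or the mean ± SD over those 4. On the third principal component, with 9.01% of the variance, low 1 and medium 2 lay away from the other libraries, as high 2 did on the second, with 9.94%. Adjusted p-values come from edgeR's quasi-likelihood test with Benjamini-Hochberg adjustment over all 13891 genes, and a gene is called where its adjusted p is under 0.05.

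Between the high and the negative gate, 15 of the 33 tested imprinted genes were called (45.5%), against 17% of all tested genes. Of the 33, 11 were called higher in the high gate, as 8.42% of all tested genes were: Cdkn1c, Airn, Magel2, Peg3, Grb10, Nnat, Meg3, Igf2r, Kcnq1ot1, Ppp1r9a and H13. Another 4 of the 33 were called lower in the high gate, as 8.55% of all tested genes were: Ascl2, Mest, Ndn and Impact. The median log2 fold change of the 33 genes was 0.23, and that of all tested genes was 0.00. The 33 genes also had a higher level than most tested genes, with a median of 57.2 CPM against 16.5 CPM over all of them. The part of that level in the share called was not tested. Without the low 1 and medium 2 libraries 19 of the 33 were called, while the share of all tested genes was 20.6%.

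**Figure D1:**
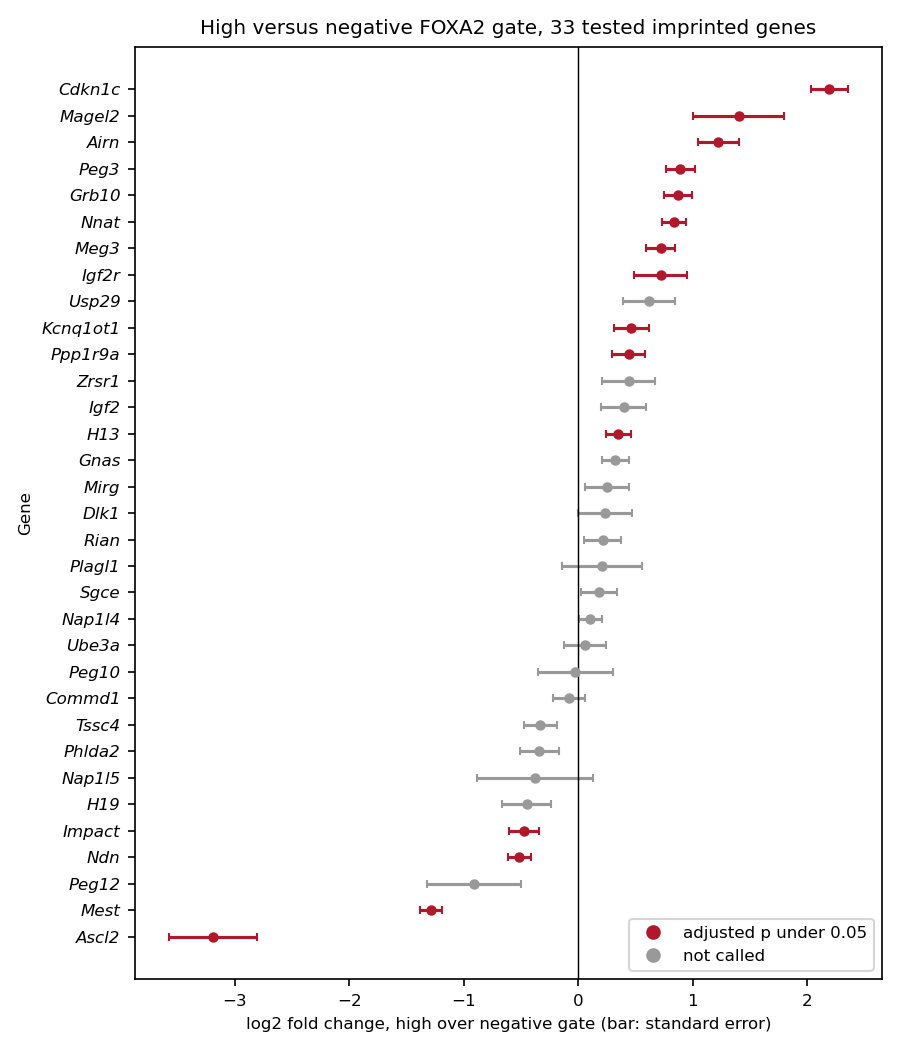
Log2 fold change of each of the 33 tested imprinted genes, high over negative FOXA2 gate, with bars of 1 standard error and red points where the adjusted p is under 0.05. The largest rise is Cdkn1c at 2.19 and the largest fall is Ascl2 at -3.19.

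Fewer imprinted genes were called at lower FOXA2 levels, as fewer of all tested genes were. Between the medium and the negative gate 8 of 33 were called, 24.2% against 8.46% of all tested genes. Airn, Peg3, Cdkn1c and Magel2 were higher in the medium gate (4.24% of all tested genes were), and H19, Phlda2, Ascl2 and Mest were lower (4.22%). Between the low and the negative gate 4 of 33 were called, 12.1% against 3.76% of all tested genes, with Cdkn1c higher in the low gate (1.47% of all tested genes were) and H19, Phlda2 and Ascl2 lower (2.29%). These 3 comparisons share the negative libraries. Between neighbouring gates, 4 of 33 were called for high versus medium, 12.1% against 0.914% of all tested genes, with Grb10, Cdkn1c and Nnat higher in the high gate (0.367% of all tested genes were) and Mest lower (0.547%). For medium versus low 2 of 33 were called, 6.06% against 0.713% of all tested genes, with Cdkn1c higher in the medium gate (0.49% of all tested genes were) and Mest lower (0.223%). The median log2 fold changes of the 33 genes, with those of all tested genes after them, were 0.07 and 0.00 for medium versus negative, 0.18 and 0.02 for low versus negative, 0.14 and 0.00 for high versus medium, and 0.02 and -0.01 for medium versus low. Tested jointly for a difference between any of the 4 gates, 13 of the 33 were called, against 13.7% of all tested genes. The libraries of the compared gates did not overlap for 16 of the 33 genes in high versus negative (21.6% of all tested genes), 11 in medium versus negative (12.9%), 6 in low versus negative (9.64%), 5 in high versus medium (5.37%) and 4 in medium versus low (4.07%).

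**Figure D2:**
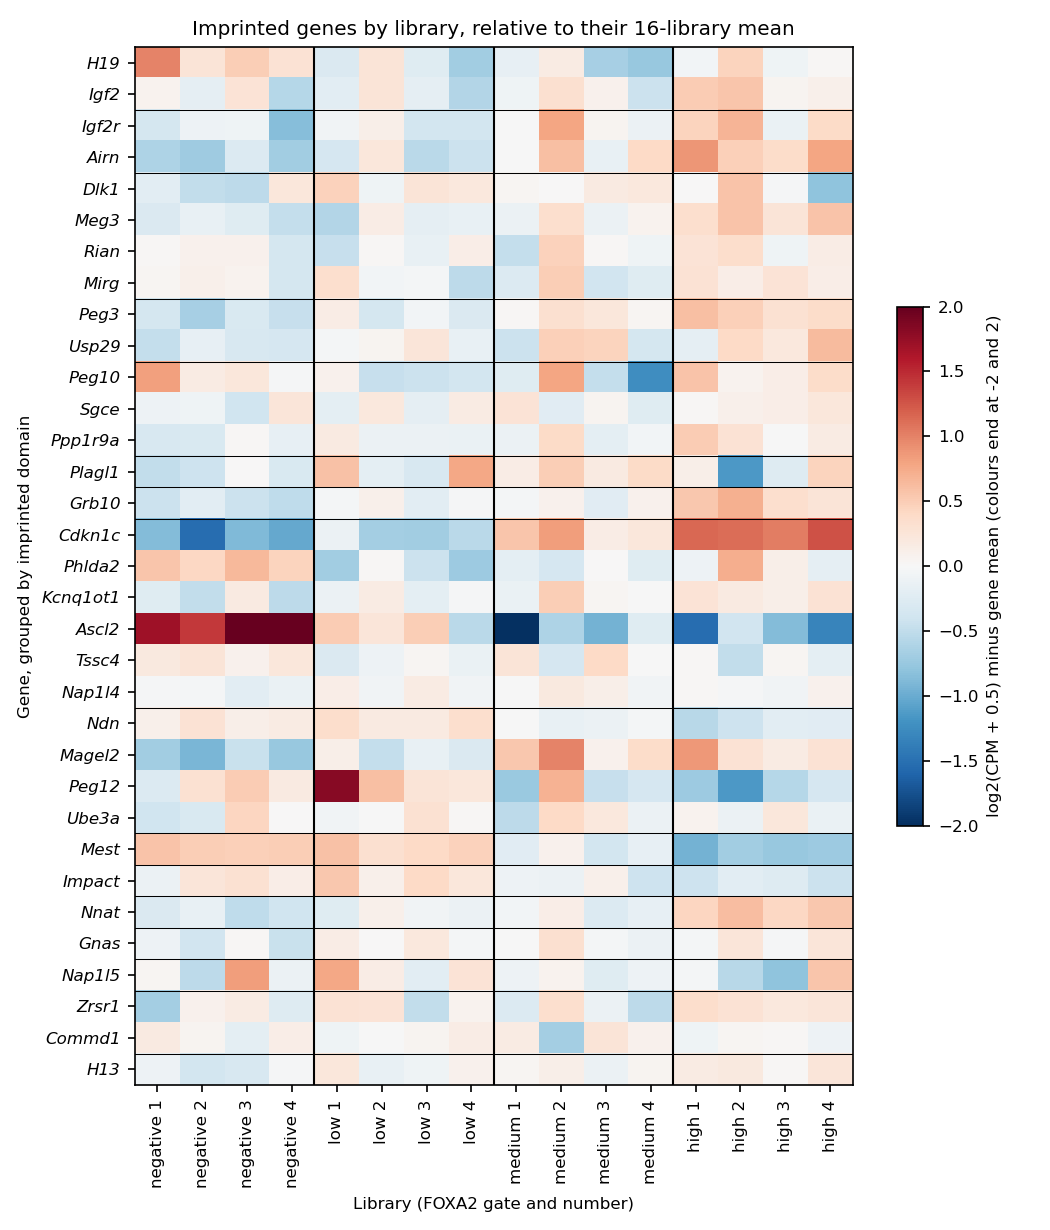
Level of each tested imprinted gene in all 16 libraries, as log2(CPM + 0.5) minus the gene's mean over the libraries, with genes grouped by domain and libraries ordered from the negative to the high gate. Cdkn1c turns from blue (below its mean) to red (above it) along the gates, while Mest and Ascl2 turn from red to blue. Colours end at -2 and 2.

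The steepest differences lay in the Kcnq1ot1 domain of distal chromosome 7, where maternally expressed genes moved in opposite directions. Cdkn1c (chr7:143458339-143461050 in GRCm38, minus strand) encodes the cyclin-dependent kinase inhibitor p57, which holds dividing cells in G1. Its level was 177, 113, 175 and 159.6 CPM among negative libraries, 299.8, 203, 199 and 222 among low libraries, 478, 578, 361 and 379.7 among medium libraries and 719, 701, 658 and 781 among high libraries. No library of any gate overlapped one of another gate. Cdkn1c rose in the high gate, 4.57-fold over the negative gate (log2 fold change 2.19 with SE 0.16, adjusted p = 2.41e-09), and in the medium gate (log2 fold change 1.52 with SE 0.16, adjusted p = 9.9e-07). Between neighbouring gates the log2 difference was 0.67 (SE 0.16, adjusted p = 0.0416) for high versus medium and 0.96 (SE 0.16, adjusted p = 0.0023) for medium versus low. Cdkn1c was already higher in the low than in the negative gate (log2 fold change 0.56 with SE 0.16, adjusted p = 0.049). That call was lost without any single one of high 1, 2 or 4, medium 1, low 1, 2 or 4, or negative 1, 2, 3 or 4, with adjusted p of 0.051 to 0.18. The high versus medium call was lost without any single one of high 1, 2, 3 or 4, medium 1, 3 or 4, low 4, or negative 3 or 4, with adjusted p of 0.0501 to 0.184.

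Ascl2 (chr7:142966829-142969264, minus strand), a basic helix-loop-helix factor needed for the spongiotrophoblast of the placenta and also a WNT target in stem cells, went the other way. Its level was 13.4, 10.9, 18.2 and 19.5 CPM among negative libraries, 5.57, 4.59, 5.51 and 2.47 among low libraries, 0.394, 2.31, 1.73 and 3.12 among medium libraries and 0.998, 2.78, 1.85 and 1.22 among high libraries. Every negative library stood above every library of the other gates, and the low gate overlapped the medium gate. Ascl2 fell in the low gate (log2 fold change -1.77 with SE 0.32, adjusted p = 0.000756), in the medium gate (log2 fold change -2.98 with SE 0.36, adjusted p = 7.5e-07) and in the high gate (log2 fold change -3.19 with SE 0.38, adjusted p = 3.25e-07). These calls kept their side of the threshold in all the alternatives run. Levels in the medium and high gates rest on 2 to 22 counts a library.

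Phlda2 (chr7:143501545-143503150, minus strand), a small pleckstrin homology protein that restrains placental growth, was lower in the middle of the range. Its level was 132, 119, 139.8 and 122 CPM among negative libraries, 54.7, 90.4, 66.2 and 53.7 among low libraries, 77.5, 70.9, 90.1 and 75.2 among medium libraries and 83.0, 147, 96.3 and 78.5 among high libraries. Negative libraries lay above all those of the low and medium gates, but high 2 lay above all 4 of them. Phlda2 fell in the low gate (log2 fold change -0.95 with SE 0.17, adjusted p = 0.00122) and in the medium gate (log2 fold change -0.71 with SE 0.17, adjusted p = 0.00935). The difference between the high and the negative gate was -0.34 (SE 0.17, adjusted p = 0.195) and was not called. Without the high 2 library it was -0.57, with an adjusted p of 0.00853. The call in the medium gate was lost without medium 2, at an adjusted p of 0.0535.

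Kcnq1ot1 (chr7:143203458-143296549, minus strand) is the paternally expressed noncoding RNA that silences this domain on the paternal chromosome, and it lies within Kcnq1 on the other strand. Its level was 42.0, 35.2, 56.4 and 34.2 CPM among negative libraries, 45.7, 55.6, 43.2 and 48.7 among low libraries, 45.1, 69.8, 51.2 and 49.6 among medium libraries and 59.9, 56.2, 54.1 and 60.9 among high libraries. The high libraries were all above 3 of the 4 negative ones and overlapped negative 3. Kcnq1ot1 rose in the high gate (log2 fold change 0.47 with SE 0.15, adjusted p = 0.0322), a call that was lost without any single one of high 1, 2 or 4, or negative 1, 2 or 4 (adjusted p 0.0537 to 0.13). The host Kcnq1 was listed at a mean of 7.70 CPM, with 2.26 to 22.1 CPM by library. Tssc4, a spliceosome assembly factor, averaged 69.3, 55.8, 65.1 and 54.9 CPM from negative to high and was not called (high versus negative, adjusted p = 0.112). Nap1l4, a nucleosome assembly protein, averaged 123, 136, 138 and 132 CPM in that order and was not called either (adjusted p = 0.55).

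**Figure D3:**
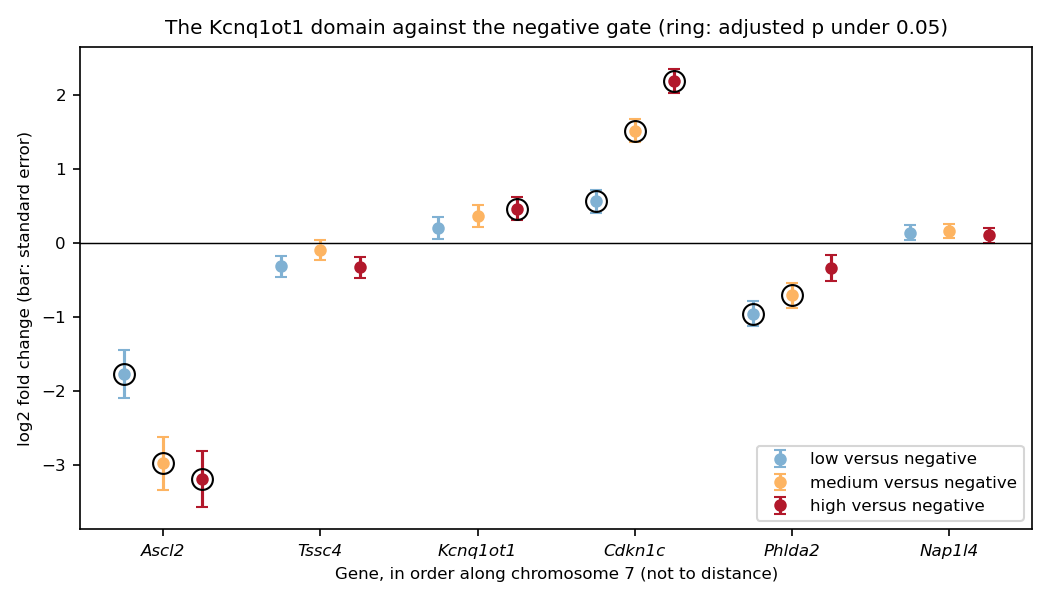
Log2 fold change of the 6 imprinted genes of the Kcnq1ot1 domain in the high, medium and low gates over the negative gate, with bars of 1 standard error and rings where the adjusted p is under 0.05. The 3 comparisons share the negative libraries. Cdkn1c increases and Ascl2 decreases with the gate, and Phlda2 is lowest in the low gate.

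Mest (chr6:30723547-30748465, plus strand) is a paternally expressed gene of the alpha/beta hydrolase fold, known for its expression in mesoderm and other growing embryonic tissue. Its level was 1342, 1271, 1260.5 and 1267 CPM among negative libraries, 1360.0, 1136, 1188 and 1245 among low libraries, 776, 958, 703 and 812 among medium libraries and 470.1, 559, 533 and 548 among high libraries. The low and negative gates overlapped, the medium libraries all lay below them, and the high libraries all lay below the medium ones. Mest fell in the high gate (log2 fold change -1.29 with SE 0.10, adjusted p = 3.25e-11) and in the medium gate (log2 fold change -0.66 with SE 0.10, adjusted p = 1.43e-05), both over the negative gate. Between neighbouring gates it fell as well, with log2 differences of -0.62 (SE 0.10, adjusted p = 0.000333) for high versus medium and -0.60 (SE 0.10, adjusted p = 0.000522) for medium versus low. These 4 calls kept their side of the threshold in all the alternatives run. In the low gate the difference from the negative gate was -0.06 (SE 0.10, adjusted p = 0.848). Mest overlaps Copg2 on the other strand, which averaged 35.5 CPM over the libraries.

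In the CPM summed over the listed genes, the share of Mest was smaller and that of Cdkn1c larger in the high than in the negative gate. Mest held 12.6% ± 0.83 of the summed CPM in the high gate and 34.0% ± 0.97 in the negative gate (SD, n = 4 each). Cdkn1c held 17.1% ± 0.93 in the high gate and 4.12% ± 0.73 in the negative gate. The sum itself was 4180 ± 215 CPM in the high gate and 3784 ± 121 CPM in the negative gate.

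Both Mest and Nnat, described next, are paternally expressed from promoters that are methylated on the maternal allele, and their promoter windows are shown because the pair moved in opposite directions. The windows span 250 bases before to 50 after the RefSeq start (GRCm38.p6). Mest has 3 windows, of which the one printed is chr6:30737800-30738099 on the plus strand, inside the bounds of the gene, and the Nnat window is chr2:157559828-157560127 on the plus strand. Capitals mark TGCCGC, the hexamer bound when methylated by ZFP57, a zinc finger protein that keeps imprints, searched on both strands and here found as its reverse complement GCGGCA.
Mest promoter window: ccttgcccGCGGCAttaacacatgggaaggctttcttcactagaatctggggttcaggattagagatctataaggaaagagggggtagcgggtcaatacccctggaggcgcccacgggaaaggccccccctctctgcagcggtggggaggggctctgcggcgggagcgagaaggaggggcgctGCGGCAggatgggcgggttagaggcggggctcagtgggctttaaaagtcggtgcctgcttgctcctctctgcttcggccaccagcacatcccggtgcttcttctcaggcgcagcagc
Nnat promoter window: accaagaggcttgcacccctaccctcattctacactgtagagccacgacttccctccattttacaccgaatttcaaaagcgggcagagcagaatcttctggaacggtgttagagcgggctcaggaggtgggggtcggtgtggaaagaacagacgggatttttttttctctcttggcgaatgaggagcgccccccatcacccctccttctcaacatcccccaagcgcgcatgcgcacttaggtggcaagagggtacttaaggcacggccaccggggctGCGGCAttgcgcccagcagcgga
The printed Mest window held 2 matches and the Nnat window 1, and each held 17 CpG sites. Another Mest window, nearly the same, starts 3 bases further on, and the window of the upstream start, chr6:30733256-30733555, held 0 matches and 8 CpG sites. Windows were found for 32 of the 39 genes, with 52 windows in all. Among these genes 11 had the hexamer in at least 1 window (34.4%), against 13.1% of the 27025 genes in the table. Per window the shares were 23.1% of 52 and 11.6% of 32851. The median number of CpG sites was 17 in the windows of the imprinted genes and 7 in all windows. H19, Rtl1, Peg10, Sgce, Cdkn1c, Nap1l4 and Impact had no window.

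The Mest gene also contains the hairpin of miR-335, on the same strand. Its mature forms are printed from RefSeq (GRCm38.p6) with the seed, bases 2 to 8, in capitals. They lie at chr6:30741314-30741336 and chr6:30741354-30741375 on the plus strand, and mature miRNAs were not measured in these libraries.
mmu-miR-335-5p: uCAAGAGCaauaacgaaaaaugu
mmu-miR-335-3p: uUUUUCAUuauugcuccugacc

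Nnat (chr2:157560078-157562522, plus strand) encodes neuronatin, a small membrane protein of the endoplasmic reticulum known from the early hindbrain and neuroendocrine cells. Its level was 241, 264, 206 and 222 CPM among negative libraries, 247, 315, 279.7 and 269 among low libraries, 283, 323, 243 and 262 among medium libraries and 397, 451, 392 and 429 among high libraries. The high libraries lay above all 12 others, while the medium, low and negative gates overlapped. Nnat rose in the high gate over the negative gate (log2 fold change 0.84 with SE 0.11, adjusted p = 8.34e-07) and over the medium gate (log2 fold change 0.59 with SE 0.11, adjusted p = 0.00266). Both calls kept their side of the threshold in all the alternatives run. Nnat lies within Blcap, on the other strand, which is imprinted in brain and was also called higher in the high gate, at 29.7 ± 3.63, 37.0 ± 4.68, 36.1 ± 4.14 and 41.0 ± 6.70 CPM from negative to high.

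**Figure D4:**
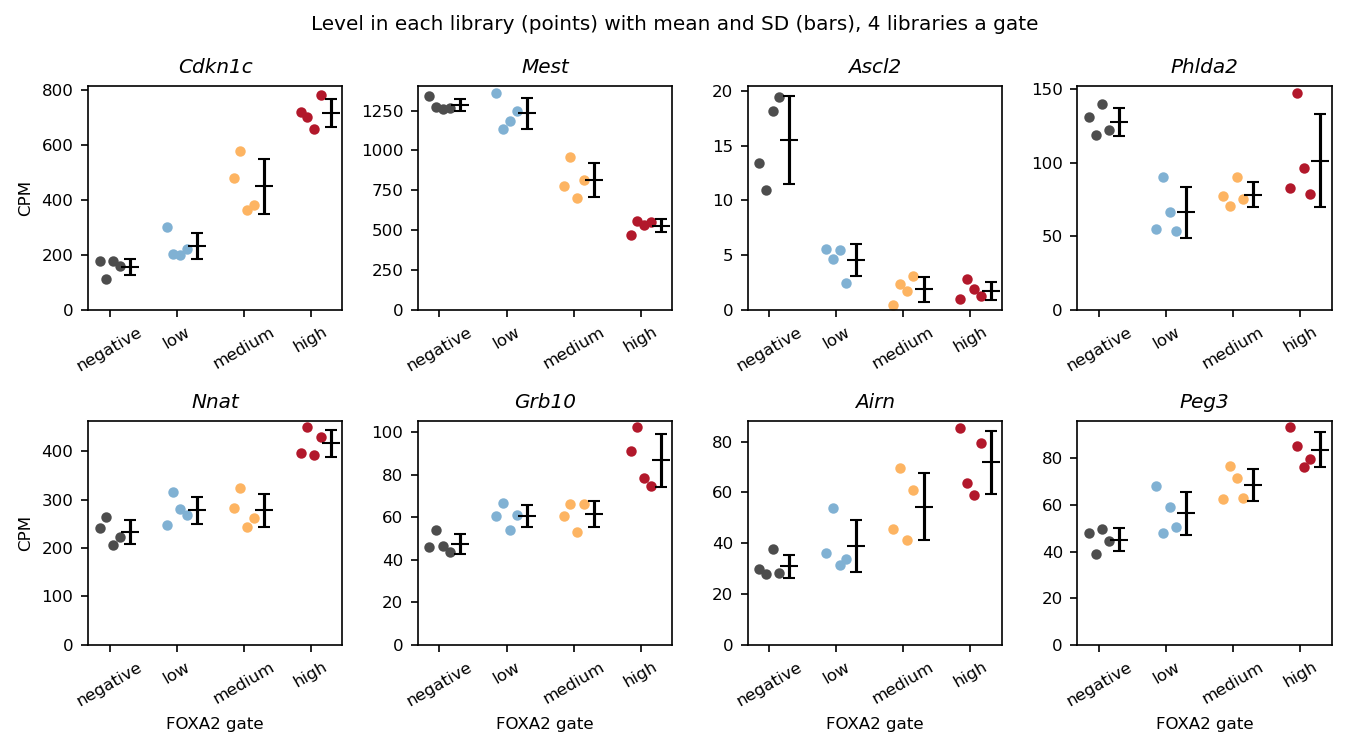
CPM of 8 imprinted genes in each library (points) with the mean and SD of each gate (black bars, 4 libraries), on linear axes from 0 and with the gates in order from negative to high. Cdkn1c rises at each gate, Mest falls at the medium and again at the high gate, and Nnat stands apart in the high gate.

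The genes of the insulin-like growth factor route came next. H19 (chr7:142575529-142578143, minus strand) is a maternally expressed noncoding RNA made downstream of Igf2, and its level was 49.1, 29.3, 34.8 and 30.1 CPM among negative libraries, 19.9, 29.3, 20.6 and 14.9 among low libraries, 21.6, 27.5, 15.2 and 14.3 among medium libraries and 23.4, 33.6, 23.1 and 25.0 among high libraries. All negative libraries lay at or above 29.3 CPM, the medium libraries all lay below them, and low 2 lay just under the lowest negative library. H19 fell in the medium gate (log2 fold change -0.87 with SE 0.22, adjusted p = 0.0111) and in the low gate (log2 fold change -0.76 with SE 0.21, adjusted p = 0.0453), whereas the high gate, which overlapped the negative gate, differed by -0.45 (SE 0.22, adjusted p = 0.168). The medium call was lost without negative 1 (-0.68, adjusted p = 0.0541). The low call was lost without any single one of high 1, 3 or 4, medium 1, low 1, 3 or 4, or negative 1 or 3 (adjusted p 0.0559 to 0.191). Igf2, the paternally expressed growth factor that shares its enhancers with H19, averaged 105 ± 25.2, 99.3 ± 23.7, 109.8 ± 23.3 and 138 ± 24.6 CPM from negative to high. Igf2 was not called. Its difference between the high and the negative gate was 0.40 (SE 0.20, adjusted p = 0.195, unadjusted p = 0.0597). This difference was called without the filter on low counts, at an adjusted p of 0.0169, and with the replicate number as a block in the fit, at 0.0318.

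H19 is also the precursor of miR-675, at chr7:142577112-142577133 and chr7:142577078-142577099 on the minus strand, shown in the same way and likewise not measured as mature miRNA. The seeds of the 4 mature forms printed here all differ.
mmu-miR-675-5p: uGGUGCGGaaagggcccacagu
mmu-miR-675-3p: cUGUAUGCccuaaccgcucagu

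Igf2r (chr17:12682406-12769664, minus strand), the receptor that clears IGF2 from the cell surface, had 10.2, 12.2, 12.4 and 7.06 CPM among negative libraries, 12.4, 14.3, 10.0 and 10.0 among low libraries, 13.0, 23.1, 13.7 and 12.0 among medium libraries and 18.1, 21.2, 11.9 and 17.3 among high libraries. The high gate overlapped the negative gate through high 3, and medium 2 was the highest of all 16 libraries. Igf2r rose in the high gate (log2 fold change 0.72 with SE 0.23, adjusted p = 0.0311), a call that was lost without any single one of high 1, 2 or 4, or negative 1 or 4 (adjusted p 0.0603 to 0.134). Airn (chr17:12741311-12860136, plus strand), the noncoding RNA that starts inside Igf2r on the other strand and silences it on the paternal chromosome, had 29.8, 28.0, 37.7 and 28.1 CPM among negative libraries, 36.1, 53.9, 31.5 and 33.9 among low libraries, 45.7, 69.6, 41.3 and 60.9 among medium libraries and 85.3, 63.7, 59.2 and 79.4 among high libraries. Every high and every medium library of Airn lay above every negative one. Airn rose in the high gate (log2 fold change 1.22 with SE 0.18, adjusted p = 1.3e-05) and in the medium gate (log2 fold change 0.82 with SE 0.18, adjusted p = 0.00279). The 2 genes of this pair, opposed in their imprinting, were thus both called higher in the high gate, with the limit that reads of the overlap cannot be told apart without strand.

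Grb10 (chr11:11930508-12038683, minus strand) encodes an adaptor that damps insulin and IGF receptor signalling and is expressed from the maternal allele in most tissues but from the paternal allele in neurons. Its level was 46.0, 54.0, 46.2 and 43.5 CPM among negative libraries, 60.4, 66.6, 53.9 and 61.2 among low libraries, 60.6, 66.1, 52.9 and 66.3 among medium libraries and 91.0, 102, 78.6 and 74.9 among high libraries. The high libraries lay above all 12 others, and the medium gate overlapped the low gate. Grb10 rose in the high gate over the negative gate (log2 fold change 0.87 with SE 0.12, adjusted p = 5.14e-06) and over the medium gate (log2 fold change 0.50 with SE 0.12, adjusted p = 0.0447). The second call was lost without any single one of high 1, 2 or 3, medium 1, 3 or 4, low 3 or 4, or negative 3 or 4 (adjusted p 0.0515 to 0.262). Plagl1, a zinc finger factor that regulates other imprinted genes, averaged 3.63, 5.66, 5.75 and 4.21 CPM from negative to high and was not called (high versus negative, log2 fold change 0.21, SE 0.35, adjusted p = 0.757). Among 12 other genes of the IGF axis, 4 were called higher in the high than in the negative gate (Igf1, Irs2, Igfbp4 and Igfbp5) and 0 lower. The shares of all tested genes were 8.42% higher and 8.55% lower. The median log2 fold change was 0.32 over the 12, beside 0.00 for all tested genes. Igf1 averaged 1.71, 5.15, 24.0 and 42.7 CPM and Igfbp5 57.2, 176, 334 and 441 CPM from the negative to the high gate.

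In the Dlk1-Meg3 domain of chromosome 12, the maternal noncoding RNA rose in the high gate and its paternal counterpart was not called. Meg3 (chr12:109541001-109571726, plus strand) had 349.8, 386, 359.6 and 307 CPM among negative libraries, 285, 474, 377 and 386 among low libraries, 393, 539.9, 394 and 446 among medium libraries and 536, 632, 508 and 636 among high libraries. The high gate lay above the negative gate without overlap, medium 2 lay within the high gate, and the low gate overlapped the negative one. Meg3 rose in the high gate (log2 fold change 0.72 with SE 0.13, adjusted p = 0.000148), in all the alternatives run. Rian and Mirg, the noncoding RNAs that follow Meg3 on the same strand and contain clusters of small RNAs, averaged 66.7, 63.6, 68.9 and 77.2 CPM and 21.6, 21.4, 21.1 and 25.5 CPM from the negative to the high gate. Their differences between the high and the negative gate were 0.21 (SE 0.16, adjusted p = 0.426) and 0.25 (SE 0.19, adjusted p = 0.435). Dlk1, a transmembrane ligand related to Notch ligands, averaged 9.35 ± 2.52, 12.9 ± 2.04, 11.9 ± 0.855 and 11.1 ± 4.23 CPM from negative to high (high versus negative, log2 fold change 0.23, SE 0.24, adjusted p = 0.577). Rtl1, a retrotransposon-derived gene, and Begain, a synaptic protein gene, were too low to test, with 28 and 112 counts over the 16 libraries. Rtl1 averaged 0, 0.4, 0.436 and 0.233 CPM and Begain 1.08, 1.34, 1.20 and 0.861 CPM from negative to high. None of the 28 counts of Rtl1 fell in the negative gate, where a count of 0 allows 0.301 to 0.550 CPM in a library.

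In the Peg3 domain of proximal chromosome 7, Peg3 (chr7:6703892-6730431, minus strand), a zinc finger gene that acts in maternal behaviour and cell survival, had 48.0, 38.7, 49.5 and 44.3 CPM among negative libraries, 68.1, 47.9, 59.0 and 50.5 among low libraries, 62.4, 76.9, 71.7 and 63.2 among medium libraries and 93.5, 85.5, 76.2 and 79.7 among high libraries. The high libraries lay above all the negative and low ones and overlapped the medium gate, and the medium libraries all lay above the negative ones. Peg3 rose in the high gate (log2 fold change 0.89 with SE 0.13, adjusted p = 5.86e-06) and in the medium gate (log2 fold change 0.60 with SE 0.13, adjusted p = 0.00189), in all the alternatives run. Usp29, a deubiquitinase-like gene read from the shared promoter in the opposite direction, averaged 9.81, 12.7, 13.2 and 15.3 CPM from negative to high and was just short of the threshold (high versus negative, log2 fold change 0.62, SE 0.22, adjusted p = 0.0567). It was called in 8 of 23 alternatives, among them those without high 1, medium 1 or medium 2 (adjusted p 0.0287 to 0.0469). Zim1 of the same domain was too low to test, with 84 counts and 0.279, 0.788, 0.914 and 1.38 CPM in the same order of gates.

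The Peg10-Sgce domain of chromosome 6 had 1 called gene. Ppp1r9a (chr6:4902917-5165661, plus strand) encodes neurabin, an actin-binding scaffold of synapses, and had 40.7, 41.0, 51.9 and 45.4 CPM among negative libraries, 57.9, 47.0, 46.7 and 46.6 among low libraries, 47.0, 66.6, 44.6 and 49.3 among medium libraries and 72.3, 62.5, 50.6 and 57.2 among high libraries. The high and negative gates overlapped through high 3, which lay below negative 3. Ppp1r9a rose in the high gate (log2 fold change 0.44 with SE 0.14, adjusted p = 0.0296), a call that was lost without any single one of high 1 or 2, or negative 1, 2 or 4 (adjusted p 0.0568 to 0.149). Peg10, a retrotransposon-derived gene needed for the placenta, averaged 32.5 ± 9.11, 21.1 ± 4.10, 23.8 ± 14.7 and 31.8 ± 5.30 CPM from negative to high. It was not called, but without medium 2 it was called lower for medium versus negative (-0.95, adjusted p = 0.00798) and higher for high versus medium (0.93, adjusted p = 0.0359). Sgce, the epsilon sarcoglycan gene that shares a promoter region with Peg10, averaged 29.6, 31.3, 30.5 and 33.8 CPM from negative to high and was not called. Asb4 was too low to test, with 50 counts and 0.846, 0.775, 0.132 and 0.241 CPM in that order.

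In the Snrpn domain of central chromosome 7, the neighbouring intronless genes Ndn and Magel2 moved in opposite directions. Ndn (chr7:62346569-62350262, plus strand), which encodes necdin, a protein of the MAGE family that promotes neuronal differentiation and survival, had 189, 215, 191 and 198 CPM among negative libraries, 225, 200.1, 199 and 223 among low libraries, 174, 158, 163 and 171 among medium libraries and 120.2, 133, 152 and 150.4 among high libraries. The high libraries lay below all the others, the medium libraries came next, and the low and negative gates overlapped. Ndn fell in the high gate (log2 fold change -0.52 with SE 0.10, adjusted p = 0.000382), in all the alternatives run. Magel2 (chr7:62377010-62381640, plus strand), another MAGE family gene that acts in protein recycling, had 1.30, 1.04, 1.64 and 1.23 CPM among negative libraries, 2.66, 1.59, 2.12 and 1.89 among low libraries, 3.74, 5.28, 2.59 and 3.26 among medium libraries and 4.82, 3.04, 2.77 and 3.04 among high libraries. The high and medium gates both lay above the negative gate, at levels that rest on 251 counts over the 16 libraries. Magel2 rose in the high gate (log2 fold change 1.40 with SE 0.40, adjusted p = 0.0142) and in the medium gate (log2 fold change 1.51 with SE 0.39, adjusted p = 0.0123). The first call was lost without high 1 (1.17, adjusted p = 0.0845) and the second without medium 2 (1.30, adjusted p = 0.0649).

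Peg12, a paternally expressed gene related to Frat1 and Frat2 of the WNT route, had 12.5, 18.8, 21.8 and 17.2 CPM among negative libraries, 55.1, 23.3, 18.2 and 17.8 among low libraries, 8.86, 24.7, 10.9 and 11.9 among medium libraries and 8.98, 6.58, 10.0 and 11.9 among high libraries. The low 1 library was far above the other 15, and the high libraries all lay below the negative ones. Peg12 was not called between the high and the negative gate (log2 fold change -0.91, SE 0.41, adjusted p = 0.16), but without low 1 the difference of -0.91 had an adjusted p of 0.0161. Ube3a, a ubiquitin ligase expressed from the maternal allele in neurons, averaged 108, 116, 113 and 112 CPM from negative to high and was not called (adjusted p = 0.884). Snrpn was too low to test, with 35 counts and 0.578, 0.311, 0.354 and 0.139 CPM from negative to high, and Snurf, which shares its transcript on the same strand, was listed at 0. How reads shared by genes on the same strand were counted is not given. The values of Snrpn and Snurf therefore need not reflect the level of the shared transcript.

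Impact, on chromosome 18, encodes an inhibitor of the GCN2 kinase that is abundant in neurons, and had 51.8, 66.2, 69.2 and 61.5 CPM among negative libraries, 82.1, 60.4, 74.4 and 65.4 among low libraries, 52.0, 51.5, 60.3 and 42.1 among medium libraries and 42.1, 48.3, 46.6 and 41.7 among high libraries. The high libraries lay below all the negative and low ones and overlapped the medium gate. Impact fell in the high gate (log2 fold change -0.48 with SE 0.13, adjusted p = 0.0121), in all the alternatives run. H13 (chr2:152669461-152708670, plus strand), which encodes the signal peptide peptidase, had 212, 177, 182 and 222 CPM among negative libraries, 267, 204, 215 and 241 among low libraries, 233, 246, 209 and 236 among medium libraries and 253, 261, 231 and 268 among high libraries. The high libraries lay above all the negative ones, and the low and medium gates overlapped both. H13 rose in the high gate (log2 fold change 0.35 with SE 0.11, adjusted p = 0.0197), a call that was lost without any single one of high 2 or 4, or negative 2 or 3 (adjusted p 0.0529 to 0.0891). Mcts2, a retrogene inside H13 on the same strand, was listed at 0 in every library, with the limit given above for Snrpn and Snurf.

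Of the remaining genes none was called. Gnas, which encodes the stimulatory G protein alpha subunit, averaged 193, 237, 231 and 242 CPM from the negative to the high gate (high versus negative, log2 fold change 0.32, SE 0.12, adjusted p = 0.0571). Without negative 3 or without medium 2 the same difference was called, at adjusted p of 0.0228 to 0.0235. It was also called in 4 other settings, at adjusted p of 0.0199 to 0.0494. These were no low-count filter, the smallest total, the compared gates alone, and leaving out low 1 and medium 2 together. Zrsr1, a splicing factor retrogene inside Commd1 on the other strand, averaged 10.4, 12.1, 10.6 and 14.0 CPM, and Commd1, a copper metabolism gene, averaged 95.2, 93.9, 92.4 and 90.2 CPM. Nap1l5, an intronless gene inside Herc3 on the other strand, averaged 1.95, 2.21, 1.58 and 1.55 CPM. The adjusted p-values for high versus negative were 0.204 for Zrsr1, 0.776 for Commd1 and 0.682 for Nap1l5.

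Ordered by their gate means, 9 of the 17 genes called in any pair of gates had levels that increased at each gate from negative to high: Igf2r, Airn, Meg3, Peg3, Ppp1r9a, Grb10, Cdkn1c, Kcnq1ot1 and Nnat. Ascl2 and Mest decreased at each gate. For most of these genes neighbouring gates overlapped, as given above, and Cdkn1c alone was called at each of the 3 steps tested between neighbouring gates. The low and medium means of Nnat, 277.70 and 277.75 CPM, hardly differed. The 17 genes were picked by calls between these same gates, and the share of ordered genes among all tested genes was not computed. By the allele that textbooks give as the expressed one, 8 of 17 tested paternally expressed genes were called between the high and the negative gate, 5 higher and 3 lower, with a median log2 fold change of 0.23. Of 10 tested maternally expressed genes 5 were called, 4 higher and 1 lower, with a median of 0.23. The share of all tested genes was 17%, with 8.42% higher and 8.55% lower. The 4 genes called in the low gate over the negative gate (Cdkn1c higher, H19, Phlda2 and Ascl2 lower) are maternally expressed ones. In that comparison 3.76% of all tested genes were called. There the H19 call was lost in 11 and the Cdkn1c call in 14 of 23 alternatives. The difference between the paternally and the maternally expressed set was not tested.

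Of 41 other imprinted genes, 40 were in the table and 24 were tested. Between the high and the negative gate 7 of the 24 were called higher (Slc22a18, Pon2, Blcap, Inpp5f, Gab1, Ano1 and Art5) and 3 lower (Zdbf2, Slc38a4 and Zim3). The shares of all tested genes were 8.42% higher and 8.55% lower. The median log2 fold change of the 24 was 0.11. Slc22a18, a transporter gene of the Kcnq1ot1 domain next to Cdkn1c, averaged 5.28 ± 1.11, 5.25 ± 1.69, 7.11 ± 1.58 and 10.3 ± 3.21 CPM from negative to high. Zdbf2, a paternally expressed zinc finger gene that acts on body growth, averaged 84.8 ± 9.05, 58.2 ± 11.0, 54.6 ± 9.54 and 44.0 ± 9.73 CPM from negative to high. Peg13, Mkrn3, Snurf and Zim2 were listed at 0, and Zfp264 was not analysed here.

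Among 19 factors that set, keep or erase imprints, 2 were called higher in the high than in the negative gate (Tet3 and Arid4b) and 6 lower (Uhrf1, Dnmt3b, Dnmt3l, Dppa3, Tet2 and Hells). The shares of all tested genes were 8.42% higher and 8.55% lower. The median log2 fold change of the 19 was -0.30. Dnmt3l, the cofactor of de novo methylation, averaged 24.3 ± 6.75, 5.15 ± 1.83, 3.02 ± 0.353 and 3.40 ± 0.659 CPM from negative to high, and Dppa3, which protects methylation in the zygote, averaged 7.32 ± 3.51, 0.924 ± 0.748, 0.136 ± 0.168 and 0.215 ± 0.288 CPM from negative to high. Both were also called lower in the medium and in the low gate. Zfp57, whose hexamer was searched above, averaged 6.97, 5.26, 6.29 and 7.25 CPM from the negative to the high gate, and Trim28, the corepressor it recruits, averaged 237, 265, 233 and 253 CPM. Neither was called.

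Marker genes of other cell states moved along the same gates. For high versus negative, 8.42% of all tested genes were called higher and 8.55% lower. The shares called lower were 4.22% for medium versus negative and 2.29% for low versus negative. Of 12 tested pluripotency markers out of 14 listed, 11 were called lower in each of the high, medium and low gates than in the negative gate. Their summed level was 666 to 1137 CPM in the negative libraries, 116 to 218 in the low, 79.7 to 112 in the medium and 73.7 to 111 in the high ones, and Pou5f1 and Fgf4 were at 0 in the high gate. By gate mean, the tested imprinted genes highest in the negative gate, as that sum was, were H19, Peg10, Phlda2, Ascl2, Tssc4, Mest and Commd1. H19 was lowest in the medium gate, and Peg10 and Phlda2 were lowest in the low gate. In the main fit Peg10, Tssc4 and Commd1 were not called in any comparison. Commd1 averaged 95.2 CPM in the negative and 90.2 CPM in the high gate. Mest averaged 1285 CPM in the negative and 1232 CPM in the low gate and was not called between them. The other tested imprinted genes were highest in another gate. Of 6 tested neural progenitor markers out of 8 listed, 5 were called lower for high versus negative and 2 for medium versus negative, with summed levels of 284 to 326, 282 to 355, 174 to 211 and 80.2 to 105 CPM from the negative to the high gate. In the same high versus negative comparison Ascl2, Mest, Ndn and Impact were the tested imprinted genes called lower, and 11 were called higher. Sox1 and Sox2 were listed at 0 counts in all libraries. Of 6 tested endoderm markers out of 12 listed, 2 were called higher in the high gate (Sox17 and Ttr), with summed levels of 29.1 to 41.1, 88.0 to 96.0, 113 to 188 and 163 to 196 CPM, and Hnf4a was at 0 in the high gate. Trophoblast markers, of interest beside Ascl2 and Phlda2, had 3 of 4 tested genes called higher in the high gate (Cdx2, Krt7 and Gata3) and 1 lower (Tfap2c), with summed levels of 87.0 to 111, 51.9 to 79.4, 53.7 to 107 and 79.1 to 91.6 CPM, and Elf5 was at 0 in the high gate. The 5 tested of 9 mesoderm markers had 2 called higher and 2 lower in the high gate, at summed levels of 37.7 to 55.1, 52.4 to 67.1, 53.0 to 66.9 and 32.9 to 48.7 CPM. The part of these cell states in the differences of the imprinted genes was not tested.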

How the data were processed

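RNA of day 4 neural tube organoids was measured by BRB-seq in 16 libraries, 4 for each FOXA2 gate. The authors deposited raw counts of 35976 genes in 1 table, without normalization. Per the submitters' processing notes, cutadapt 1.18, STARsolo 2.7.9a, DESeq2 1.42.0 and the build GRCm38 were used. No source used here gives parameters, annotation, strand setting or collapse of molecular identifiers. Column names identified the samples.

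The test was run in edgeR 4.0.16 (R 4.3.3). Its expression filter kept 13891 genes, which held 99.7% of the counts in the library where they held least. TMM factors ran from 0.97 to 1.05. A robust quasi-likelihood model of the 4 gates was fitted to all 16 libraries (12 residual degrees of freedom), and p-values were adjusted by Benjamini and Hochberg over all tested genes, at a threshold of 0.05. Levels are CPM on the scaled library size. The SE was taken as the absolute log2 fold change over the root of the F statistic. A count of 0 allows 3 counts, or 0.301 to 0.918 CPM by library, from counting error only. The smallest chi-square per degree of freedom over 24 pairs of libraries of the same gate was 4.25, so all were kept as separate. The fit was first run on simulated counts, drawn independently for each library with changes set in the high gate only. Those counts held no replicate pairing and no outlying library, so that run does not bear on either.

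All 39 genes are accounted for. Genes called in any comparison are given in every library, and the others by gate means (with total counts for those not tested), with Peg12 added after its values were seen. The genes, the other lists and the markers were chosen with earlier results of these data known. The expressed allele and the roles of genes are background. Coordinates come from GENCODE M21 (GRCm38), and promoter and miRNA sequences from RefSeq (GRCm38.p6). Results were recomputed with DESeq2 1.42.0, with RLE scaling, without the low-count filter, with the replicate block, at the smallest total, with the compared gates alone, without each library, and without the low 1 and medium 2 libraries.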

Additional observations from a re-analysis of the deposited data

Results flagged for a closer look

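In each gate of 4 libraries, the highest or lowest library of a gene was marked where its gap to the nearest other library was a large part of the gate's whole range by Dixon's test. Among 132 gene and gate groups 8 were marked, and chance marks about 1 in 20, or 6.6 of them. The low 1 library was marked 3 times. It had 55.1 CPM of Peg12 against 17.8 to 23.3 in the other low libraries, 57.9 CPM of Ppp1r9a against 46.6 to 47.0, and 27.2 CPM of Peg10 against 18.5 to 19.9. The medium 2 library was marked for Igf2r, with 23.1 CPM against 12.0 to 13.7 in the other medium libraries, and for Mirg, with 31.0 CPM against 16.8 to 18.6. These 2 libraries also stood apart on the third principal component. Negative 4 was marked for a low Mirg of 17.1 CPM, against 22.7 to 23.6. Negative 1 was marked for Mest, with 1342 CPM against 1261 to 1271 in the other negative libraries. High 1 was marked for Magel2, with 4.82 CPM against 2.77 to 3.04 in the other high libraries.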

How the results depend on the processing

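Each of the 33 calls of imprinted genes was recomputed under 23 alternatives. None changed direction, 21 calls kept their side of the threshold in all of them, and 12 lost it in at least 1, as given beside each gene for single libraries. Thinning every library to the smallest total also ended the calls of Igf2r and Ppp1r9a for high versus negative, H19 and Cdkn1c for low versus negative and Cdkn1c for high versus medium. Fitting only the compared gates ended those of Cdkn1c for low versus negative and Grb10 for high versus medium. Leaving out low 1 and medium 2 together ended those of Phlda2 and Magel2 for medium versus negative and H19 and Cdkn1c for low versus negative. Calls were also gained: 15 differences that were not called passed the threshold in at least 1 alternative. These were Igf2, Usp29, Phlda2, Tssc4, Peg12 and Gnas for high versus negative, Meg3, Peg10, Grb10, Kcnq1ot1 and Peg12 for medium versus negative, Peg10 for low versus negative, Meg3 and Peg10 for high versus medium, and Ndn for medium versus low. Low versus negative had 4 genes called, and 2 after thinning. Leaving out 1 library at a time gave 2 to 4 genes for low versus negative, lowest without negative 1, negative 3, low 1, low 4, medium 1, high 1 or high 4. It gave 2 to 5 genes for high versus medium (4 with all libraries), lowest without negative 3 or 4, low 4, medium 1, 3 or 4, or high 1, 2 or 3. The cause was not tested. The other counts stayed within 1.5 times under every alternative, with 12 to 17 for high versus negative and 7 to 9 for medium versus negative when 1 library was left out. Of 24 pairs of same-numbered libraries 6 had a correlation of deviations over 0.1 (median 0.03), against 3 of 72 other pairs (median -0.01), and 8 of 16 libraries correlated best with their own number. Same-numbered pairs were thus over 0.1 more often than other pairs. In the sample titles each number is carried by 1 library of each gate, and same-numbered libraries follow one another. The labels name no shared culture or day, so the main fit left the number out. Whether same-numbered libraries are paired was not settled by these values. With the replicate number as a block, the imprinted genes called were 17 for high versus negative (17.8% of all tested genes), 10 for medium versus negative (9.31%), 4 for low versus negative (4.38%), 4 for high versus medium (1.26%), 2 for medium versus low (0.936%) and 15 between any gates (14.7%). The genes the block added were Igf2 (adjusted p = 0.0318) and Usp29 (0.0428) for high versus negative and Meg3 (0.0445) and Grb10 (0.0279) for medium versus negative. Values of Magel2, Ascl2, Nap1l5 and the 6 genes not tested rest on few counts in some or all libraries, with 0 for Mcts2. Why these counts were low was not tested.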
